A study of Caenorhabditis elegans with 12 samples.

Results

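The 6 vitellogenin genes of Caenorhabditis elegans, vit-1 to vit-6, and rme-2, the gene of the oocyte yolk receptor, were followed through 12 messenger RNA libraries. These 7 genes were taken by name from the 12894 genes of the deposited table. No cut on their values was used, but earlier results of these data were known. All 7 passed the filter on low values that left 12830 genes for testing. Vitellogenins are large lipid-binding proteins of yolk. The intestine of the adult hermaphrodite makes them and secretes them into the body cavity, and growing oocytes take them up by endocytosis through RME-2, a receptor of the low-density lipoprotein receptor family. Transcription of the vit genes in the intestine is known to depend on sex, on the passage to adulthood and on insulin signalling through the receptor DAF-2.

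The libraries come from whole early adults of the wild-type strain N2 (Bristol), in 4 groups of 3 biological replicates with the letters A, B and C. Hatched larvae stayed in buffer with no food for 1 day (control) or 8 days (starved), which holds them in L1 arrest, a pause of development in the first larval stage. About 1000 live animals per condition were then fed at 20 °C on HT115 bacteria that carried an empty vector (EV) or a daf-2 RNAi vector, until eggs were seen. Control animals needed about 52 hours for this and starved animals about 68, so length of arrest and time of recovery cannot be told apart. The 4 groups are named by arrest and bacteria (control EV and starved EV; control daf-2 RNAi and starved daf-2 RNAi), and all share the strain, the bacterial host, the drug and inducer on the plates, and a period of arrest. What the letters stand for is not given in the labels.

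The values are CPM computed on a scaled library size (here CPM scale), over 21150912 to 30037731 reads per library. The 7 genes had 15564 to 1027426 reads each in a library, so counting error was small beside the spread between replicates. In whole-animal RNA, fewer cells of a type and less RNA per cell cannot be told apart. The table was checked against the labels through daf-2 itself. Its level was 188, 155 and 91.6 in control EV libraries A, B and C, 317, 202 and 118 in those labelled control daf-2 RNAi, 193, 153 and 102 in starved EV, and 706, 289 and 111 in those labelled starved daf-2 RNAi. In 6 of 6 letter pairs the targeted message was thus more abundant in the RNAi-labelled library than in its EV partner, not less. The difference did not pass the test in the control groups (log2 difference 0.50, adjusted p = 0.917, limma) or the starved groups (0.96, adjusted p = 0.212), and passed in the starved groups with the letters as a block (adjusted p = 0.00791). The cause was not tested, and these values alone do not tell whether the knockdown worked. Directions below are therefore between libraries as labelled.

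In the WBcel235 annotation, vit-1 to vit-5 lie on chromosome X and vit-6 and rme-2 on chromosome IV. The gene vit-1 (K09F5.2) spans 7727889 to 7733168 on the plus strand, vit-2 (C42D8.2) spans 5101042 to 5106169 on the plus strand, and vit-5 (C04F6.1) spans 3403471 to 3408603 on the plus strand. The near-identical genes vit-4 (F59D8.2, 3558769 to 3563965) and vit-3 (F59D8.1, 3567355 to 3572549) are neighbours on the minus strand. Their reads may not be separable, since the treatment of reads with several matches is not given in the sources used here, and each shares exon bases with a non-coding RNA gene (171 bases for vit-3 and 150 for vit-4). The gene vit-6 (K07H8.6) spans 8261157 to 8266459 and rme-2 (T11F8.3) spans 5470026 to 5473174, both on the plus strand of chromosome IV. The vit genes have 4870 to 5088 exon bases and rme-2 has 2867.

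Yolk messages were among the most abundant in every library. By level, vit-6 ranked 1 or 2 among all genes in each library, vit-2 ranked 2 or 3, and vit-1 ranked 3 to 15. The other vitellogenins ranged wider, from rank 6 to 122 for vit-5, 8 to 149 for vit-3 and 9 to 175 for vit-4, and rme-2 ranked 46 to 194. Together the 6 vit genes took 4.69% ± 2.90 (SD, n = 3) of the reads in control EV, 3.62% ± 1.13 in control daf-2 RNAi, 7.55% ± 3.45 in starved EV, against 3.85% ± 1.20 in starved daf-2 RNAi. A single library ranged from 2.37% in control EV to 11.4% in starved EV, and the 95% Wilson interval of such a share was at most ± 0.0130 percentage points, for counting error only. Per kilobase of exon, the mean level in starved EV was 5810 for vit-6 and 5618 for vit-2, against 1850 for vit-1, 778 for vit-5, 518 for vit-3, 490 for vit-4 and 279.5 for rme-2.

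Vitellogenin levels differed as much between letters as between groups. The summed level of the 6 genes was 87083, 40306 and 23999 in control EV (letters A, B and C), and 50986, 31083 and 27652 in control daf-2 RNAi. It was 118645, 66192 and 41100.0 in starved EV, against 50964, 32737 and 27666 in starved daf-2 RNAi. In each of the 4 groups, library A was the highest and library C the lowest for each of the 6 genes. Library A exceeded library C by 3.26 to 3.86 times in control EV and by 2.78 to 3.16 times in starved EV, against 1.74 to 2.13 times and 1.76 to 2.15 times in the control and starved groups labelled daf-2 RNAi. The same order of letters A and C held for rme-2 with a smaller spread, C being the lowest library in each group.

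**Figure D1:**
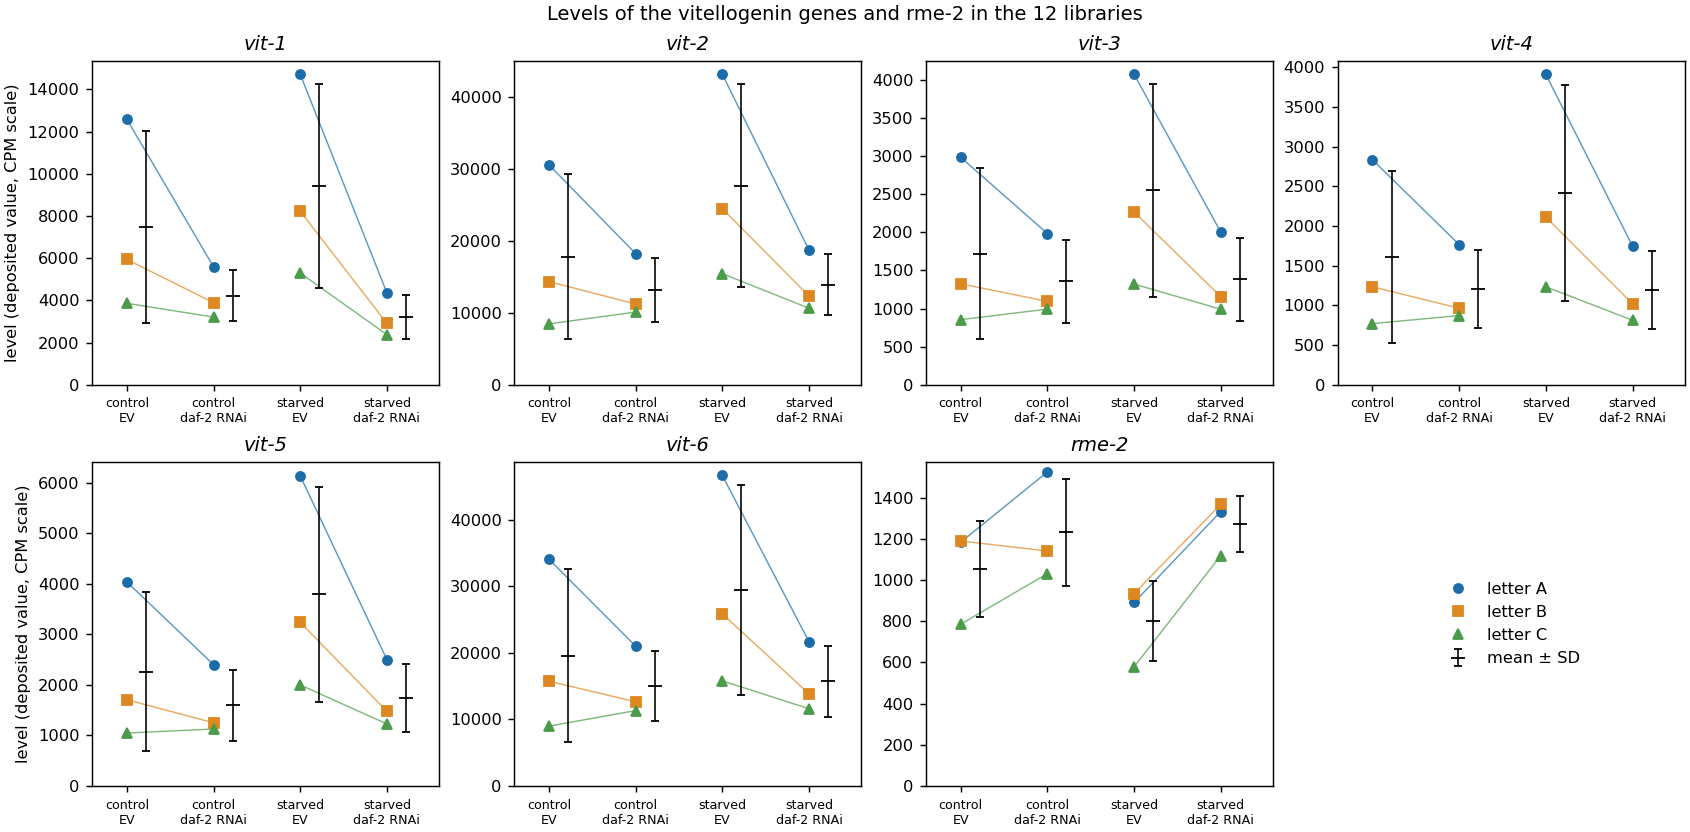
Level of each gene in each library on the CPM scale (vertical axis from 0, own scale for each gene), by group (horizontal axis). Points are libraries with a colour and shape per letter, thin lines join same-letter libraries of an arrest length, and black marks are the mean ± SD of 3 libraries. Library A is above C for each gene and group, and the starved EV points of vit-1 lie above the starved daf-2 RNAi points.

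In the order of their group means, the vitellogenins were highest in starved EV and next in control EV. For vit-1, control daf-2 RNAi came next and starved daf-2 RNAi last, while for the other 5 genes the groups labelled daf-2 RNAi were close to each other. No pair of neighbours in that order was separated by more than the larger SD of the pair, for any vit gene, and their ranges overlapped. For rme-2 the order ran from starved daf-2 RNAi through control daf-2 RNAi and control EV to starved EV. Only its last step, from 1053 ± 232 (SD, n = 3) in control EV to 801 ± 194 in starved EV, was larger than the larger SD, and those ranges overlapped too.

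Since letters differed so much, same-letter libraries were also compared directly. The deviations of same-letter libraries from their group means correlated at 0.541 to 0.695 across genes between EV and daf-2 RNAi in the control groups and at 0.593 to 0.821 in the starved groups. Results of the RNAi comparisons are therefore given with the letter as a block as well. Across arrest lengths these correlations were 0.645 on EV and 0.487 on daf-2 RNAi for letter A, and 0.659 and 0.579 for C. For letter B they were 0.0848 and -0.0952. The letters were therefore not taken as pairs across arrest lengths for the main test, and ratios by letter are a description there. The block used for the RNAi comparisons gives a letter the same effect at both arrest lengths, so this limit holds for its p-values too. It called 745 genes in control and 6151 in starved animals, against 1504 and 7397 with the letter as a block within each arrest length. The counts among the genes followed here were the same in both fits.

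The first comparison asks whether adults that had passed through a long arrest, grown on EV bacteria, carry different levels of yolk messages. All 6 vitellogenins were higher in the starved than in the control library of the same letter, in 3 of 3 letters, by 1.17 to 1.91 times, and rme-2 was lower in 3 of 3. Without the letter as a block, none of these 7 differences passed the test across all genes (limma on log2 values, adjusted p under 0.05). The count of 0 of 7 stands beside 17.7% of the 12830 tested genes called in this comparison. With the letter as a block 6 of the 7 passed, all but vit-1, beside 6371 of the 12830 tested genes. That fit treats letters as pairs across arrest lengths, which the letter B libraries did not bear out.

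The largest difference was that of vit-5, which encodes a yolk protein of the large vitellogenin class. Its level was 4036, 1705 and 1046 in control EV and 6133, 3238 and 1998 in starved EV (letters A, B and C). Each starved library was above its control of the same letter, by 1.52, 1.90 and 1.91 times, but starved libraries B and C lay below control library A. The log2 difference was 0.82 ± 0.51 (SE; adjusted p = 0.25), and it was 0.38 without control EV library C and 1.35 without control EV library A.

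For vit-6, the precursor that is cut into the smaller yolk proteins, the levels were 34048, 15727 and 8979.9 in control EV and 46624, 25859 and 15779 in starved EV. For vit-2 they were 30603, 14372 and 8483 in control EV and 43198, 24495 and 15467 in starved EV. Both genes show the same overlap as vit-5, with starved libraries B and C under control library A. The log2 differences were 0.66 ± 0.55 for vit-6 (SE; adjusted p = 0.382) and 0.71 ± 0.52 for vit-2 (adjusted p = 0.327). After quantile normalization, which gives the gene of a given rank the same value in each library, both were 0.

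The neighbours vit-3 and vit-4 behaved alike. In control EV vit-3 spanned 855 to 2983 and in starved EV 1321 to 4072, and vit-4 spanned 771 to 2834 and 1235 to 3908. Their log2 differences were 0.62 ± 0.49 (SE; adjusted p = 0.362) and 0.64 ± 0.50 (adjusted p = 0.360). The smallest difference of the family was that of vit-1, at 0.38 ± 0.46 (adjusted p = 0.556). With 1 library left out, the differences spanned 0.28 to 1.20 for vit-2, 0.20 to 1.11 for vit-3, 0.21 to 1.15 for vit-4 and 0.21 to 1.17 for vit-6, highest without control EV library A for each.

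On the receptor's side, rme-2 was at 1183, 1189.5 and 785 in control EV and 891, 934 and 579 in starved EV. Starved libraries A and B were below control libraries A and B but above control library C. The ratios by letter were 0.753, 0.785 and 0.737, closer to each other than those of any vitellogenin, and the log2 difference was -0.40 ± 0.23 (SE; adjusted p = 0.222), or -0.18 without starved EV library C.

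**Figure D2:**
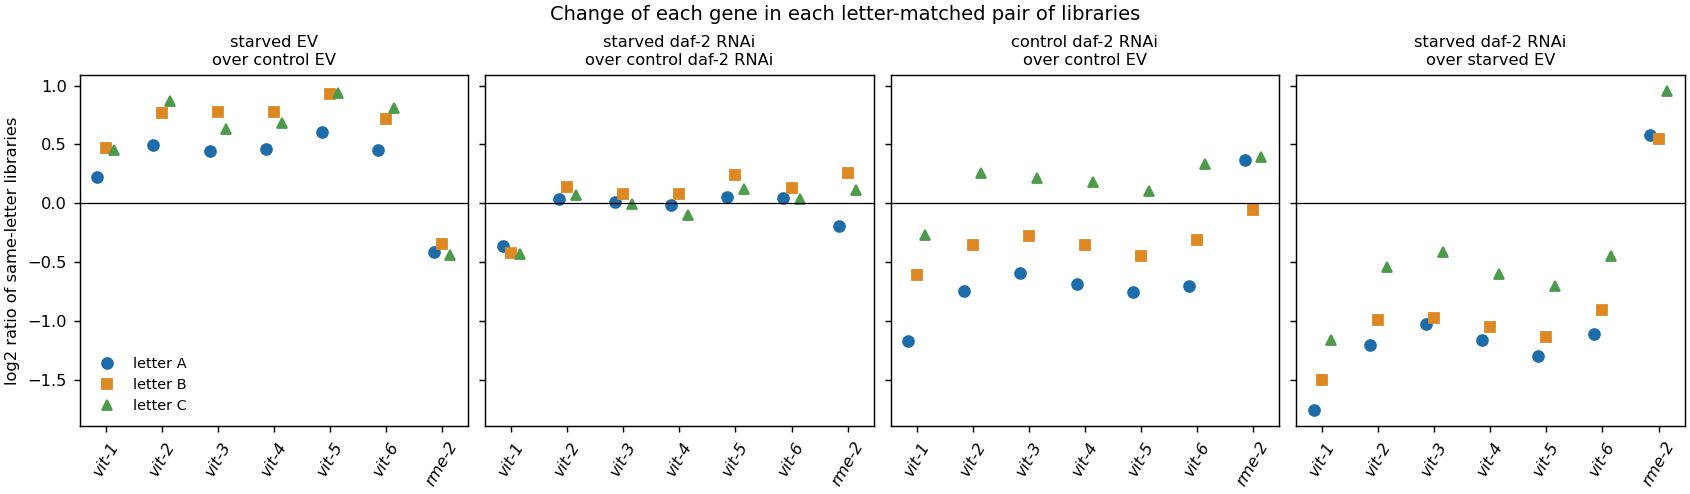
Log2 ratio of the level in 2 libraries of the same letter (vertical axis) for each gene (horizontal axis), 1 panel per comparison and a colour and shape per letter. On EV all vitellogenin points for starved over control are above 0 and those of rme-2 below it, and the panel for starved daf-2 RNAi over starved EV shows the opposite signs.

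Beside these differences, genes of other tissues and stages were read in the same libraries, where 17.7% of all genes were called. Of 20 genes of moulting and larval cuticle, 15 rose and 0 fell in starved against control EV, with a median log2 difference of 1.85 against 0.03 over all genes. Their summed level was 76.2 to 229 in control EV and 467 to 673 in starved EV. Of 20 intestine markers 4 rose and 0 fell (median 0.27). Of 19 germline genes 0 rose and 4 fell (median -0.50), and of 26 oocyte and eggshell genes 0 rose and 4 fell (median -0.35), among them spn-4, a maternal RNA-binding protein (-0.54, adjusted p = 0.0253), and egg-5, an inactive phosphatase of the egg surface (-0.54, adjusted p = 0.0428). The shares called were 75.0% of the moulting list, 20.0% of the intestine list, 21.1% of the germline list and 15.4% of the oocyte list. Without the block the last 3 shares are near that of all genes. The germline and oocyte genes called all fell, while 65.4% of all genes called rose. With the letter as a block, 19 of the 19 germline genes fell, and of the 26 oocyte genes 21 fell and 2 rose. Of the intestine markers 8 rose and 1 fell, and of the moulting genes 16 rose and 1 fell. That fit called 6371 of the 12830 tested genes and treats letters as pairs across arrest lengths, which letter B did not bear out. The part of these lists in the yolk gene differences was not tested.

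The second comparison asks what the daf-2 RNAi label goes with after a long arrest, and it holds the largest differences of the set. The vitellogenins were lower in the library labelled starved daf-2 RNAi than in starved EV in 3 of 3 letters for all 6 genes, at 0.296 to 0.751 of the EV level, and rme-2 was higher in 3 of 3. Across all genes 15.7% were called, and of the 7 genes 1 was, vit-1. With the letter as a block 47.9% of all genes were called, and all 7 of these genes, 6 lower and 1 higher.

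The gene vit-1 had levels of 14711, 8222 and 5299 in starved EV, against 4353, 2911 and 2377 in starved daf-2 RNAi, in letter order. The groups did not overlap: the lowest EV library was above the highest library labelled daf-2 RNAi. The level fell to 0.296, 0.354 and 0.449 of its EV partner, a log2 difference of -1.47 ± 0.46 (SE; adjusted p = 0.0485, limma), and with the letter as a block the adjusted p was 0.000168. The unblocked call lies at the threshold: it was lost (adjusted p = 0.0529 to 0.141) when any 1 of 8 libraries was left out, those libraries being control EV B, control daf-2 RNAi B and C, starved EV A and B, and starved daf-2 RNAi A, B and C. The adjusted p was also 0.122 after quantile normalization, where the log2 difference was -0.99.

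For vit-2 to vit-6 the groups overlapped, because library A of the daf-2 RNAi group was above library C of the EV group. In starved daf-2 RNAi the level of vit-6 was 21642, 13834 and 11597, that of vit-2 18721, 12338 and 10660.5, and that of vit-5 2499, 1476 and 1226. The ratios to the EV partner were 0.407 to 0.492 over the 5 genes in letter A, 0.456 to 0.535 in B and 0.614 to 0.751 in C. The log2 differences ran from -1.04 ± 0.51 for vit-5 (SE; adjusted p = 0.157) to -0.80 ± 0.49 for vit-3 (adjusted p = 0.236), with -0.94 for vit-4 (adjusted p = 0.189), -0.91 for vit-2 (adjusted p = 0.213) and -0.82 for vit-6 (adjusted p = 0.276). With the letter as a block they passed, with adjusted p of 0.000710 for vit-5, 0.000941 for vit-4, 0.00219 for vit-3, 0.01 for vit-2 and 0.0183 for vit-6. Without starved EV library A the 5 differences were -0.62 to -0.39. Quantile normalization turned the direction of vit-2 (0.22) and vit-6 (0.08), whose ranks hardly move.

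The receptor gene rme-2 went the other way. Its level was 891, 934 and 579 in starved EV, against 1333, 1367 and 1118 in starved daf-2 RNAi, so the lowest library labelled daf-2 RNAi was above the highest EV library. The ratios were 1.5, 1.46 and 1.93, and the log2 difference was 0.69 ± 0.23 (SE; adjusted p = 0.0600), or adjusted p = 0.00120 with the letter as a block. The value passed without the block too when columns were rescaled to equal sums (adjusted p = 0.0300), after quantile normalization (0.0299) and by DESeq2 on recovered reads (0.0258). With 1 library left out, the unblocked difference did not pass in any fit (adjusted p = 0.0518 to 0.197, limma).

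The third comparison concerns the same label after 1 day of arrest. Here 1.39% of all genes were called and 0 of the 7, and with the block 5.81% and 1 of the 7, again vit-1. Its level was 12578, 5941 and 3863 in control EV, against 5593, 3892 and 3212 in control daf-2 RNAi. Each library labelled daf-2 RNAi was below its EV partner, at 0.445, 0.655 and 0.831 of it, but A of that group was above C of the EV group. The log2 difference was -0.68 ± 0.46 (SE; adjusted p = 0.784), and 0.0455 was the adjusted p with the letter as a block.

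The other vitellogenins split by letter in the control groups. For vit-2 to vit-6 the library labelled daf-2 RNAi was at 0.595 to 0.665 of its EV partner in letter A and at 0.733 to 0.826 in B, but at 1.08 to 1.26 times it in C. For vit-6, the levels in control daf-2 RNAi were 20989.8, 12643 and 11317. The log2 differences of the 5 genes were between -0.36 (vit-5, adjusted p = 0.929) and -0.22 (vit-3, adjusted p = 0.965), and without control EV library A all 5 turned positive (0.17 to 0.28). Under quantile normalization those of vit-2 (0.22) and vit-6 (0.08) were positive. For rme-2 the ratios were 1.29, 0.959 and 1.31 and the log2 difference was 0.23 ± 0.23 (SE; adjusted p = 0.894, or 0.295 with the block).

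The fourth comparison sets the long against the short arrest among libraries labelled daf-2 RNAi. The summed vitellogenin level of a starved library was 1.00, 1.05 and 1.00 times that of its control partner. Of all genes 0.701% were called, and 0 of the 7. The log2 differences of vit-2 to vit-6 were -0.01 to 0.14, with SEs of 0.49 to 0.55, and that of rme-2 was 0.06 ± 0.23. The gene vit-1 stood at 0.778, 0.748 and 0.740 of its control partner (-0.40 ± 0.46, adjusted p = 0.837).

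Whether the effect of the label differed between arrest lengths was tested as an interaction. None of the 7 interactions passed: vit-1 had -0.79 ± 0.65 (SE; adjusted p = 0.724, limma), the other vitellogenins -0.68 to -0.59, and rme-2 0.46 ± 0.33 (adjusted p = 0.722). Of all genes 0% were called by limma and 912 had an unadjusted p under 0.05, while edgeR called 0 and DESeq2 called 4. A difference between the arrest lengths in the effect of the label was therefore not shown for these genes.

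The make-up of the vitellogenin messages was far steadier than their amount. Across the 12 libraries the log2 levels of vit-2 to vit-6 correlated with each other at r = 0.991 to 0.998, while vit-1 correlated with them at 0.896 to 0.921, values that share the letters and the scaling of the libraries. Ratios to vit-2 varied by 1.13 to 1.28 times over all libraries for vit-3, vit-4, vit-5 and vit-6, and by 2.04 times for vit-1. The limit on reads with several matches given above holds for these correlations and ratios wherever the genes share sequence.

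The level of vit-1 per 100 of vit-2 was 41.1, 41.3 and 45.5 in control EV, against 30.6, 34.6 and 31.7 in control daf-2 RNAi. It was 34.1, 33.6 and 34.3 in starved EV, against 23.3, 23.6 and 22.3 in starved daf-2 RNAi. Libraries that differed by 2.89 times in the summed level of yolk messages, such as A and C of starved EV, thus had nearly the same proportion. This ratio was singled out after its values were seen, and no test was made of it. As a share of the 6 genes summed, vit-1 made up 15.1% ± 0.88 (SD, n = 3) in control EV, 11.7% ± 0.78 in control daf-2 RNAi, 12.6% ± 0.28 in starved EV, against 8.68% ± 0.19 in starved daf-2 RNAi. Both RNAi comparisons and both arrest comparisons separate by this share without overlap, with vit-1 lower under the daf-2 RNAi label and after the long arrest.

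With a lower vit-1 share the other members together must have a higher share, though not each of them. The vit-2 and vit-3 shares were higher under the label in 3 of 3 letters in both RNAi comparisons, with vit-2 at 35.4% in control EV, 36.2% in control daf-2 RNAi, 37.02% in starved EV, against 37.7% in starved daf-2 RNAi. The vit-6 share was 38.5% ± 0.95 (SD, n = 3) in control EV and 38.9% ± 0.47 in starved EV, against 40.9% ± 0.25 and 42.2% ± 0.28 in control and starved daf-2 RNAi. Every library labelled daf-2 RNAi was above every EV library. The vit-5 share did not rise: it was 4.97% in starved EV, against 4.61% in starved daf-2 RNAi, higher under the label in 0 of 3 letters. In the control groups it was 4.41% on EV, against 4.27%, higher under the label in 1 of 3. The vit-4 share was higher under the label in 2 of 3 control letters and in 1 of 3 starved letters. Per 100 of vit-2, a ratio that leaves vit-1 out, vit-6 was at 108.8 ± 2.75 (SD, n = 3) and 113.1 ± 1.71 in the control EV and control daf-2 RNAi libraries, and at 105 ± 2.98 and 112 ± 3.41 in the starved ones, higher under the label in 3 of 3 letters each time. Within the near-identical pair, vit-4 per 100 of vit-3 was 90.2 to 96.0 in the EV libraries and 82.0 to 89.1 in those labelled daf-2 RNAi, with the limit on read assignment given above.

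**Figure D3:**
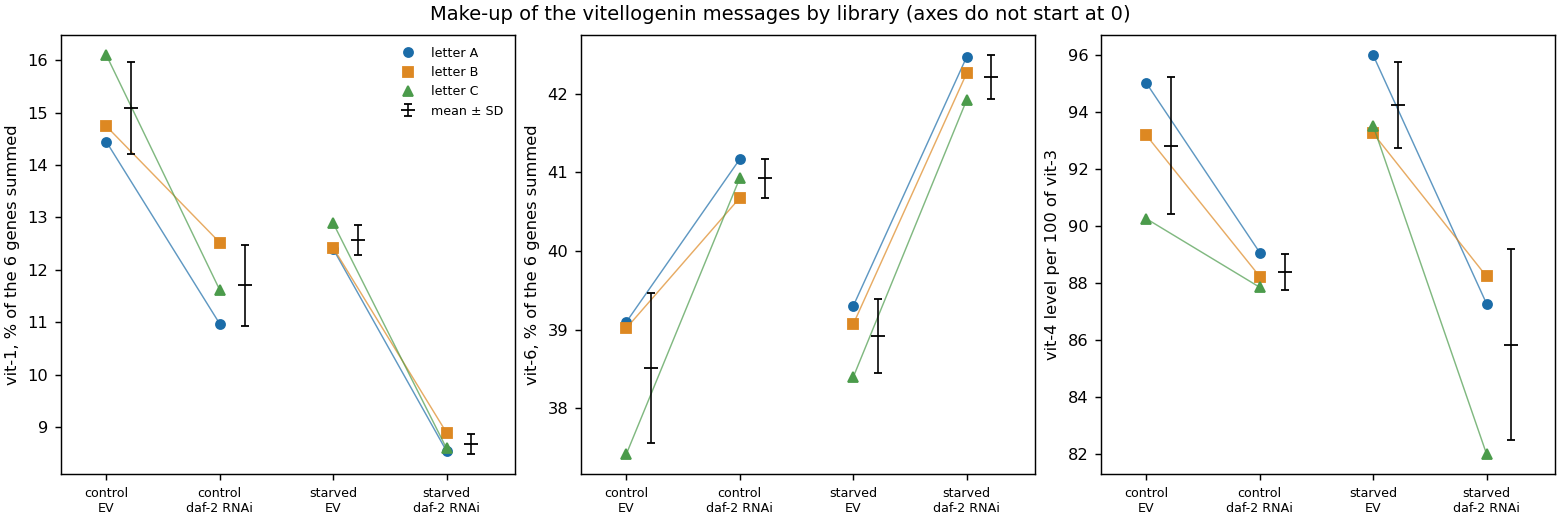
Share of vit-1 (left) and vit-6 (middle) in the summed level of the 6 vitellogenins, in percent, and the level of vit-4 per 100 of vit-3 (right), by group. Points are libraries by letter, lines join same-letter libraries, black marks are mean ± SD of 3, and the axes do not start at 0. The mean vit-1 share is 15.1% in control EV, against 8.68% in starved daf-2 RNAi, with SDs of 0.88 and 0.19.

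Between groups, yolk messages and the receptor's message had nearly opposite orders of their means, while within each group library A was above library C for both. Over the 12 libraries, which mix these orders, the correlation of rme-2 with a vitellogenin was r = -0.157 to 0.104. The level of rme-2 per 100 of the vitellogenin sum was 1.36, 2.95 and 3.27 in control EV, against 2.99, 3.67 and 3.73 in control daf-2 RNAi, 0.751, 1.41 and 1.41 in starved EV, against 2.61, 4.18 and 4.04 in starved daf-2 RNAi. Starved EV did not overlap with starved daf-2 RNAi, and in 3 of 3 letters it was lower than control EV.

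**Figure D4:**
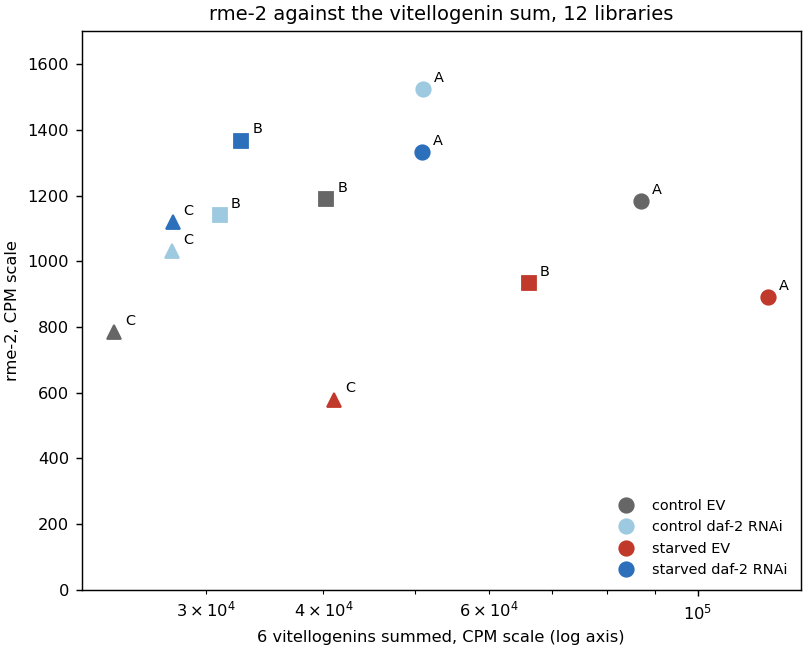
Level of rme-2 (vertical axis, from 0) against the summed level of the 6 vitellogenins (horizontal axis, log scale), both on the CPM scale, for the 12 libraries with colours for groups and letters beside the points. The starved EV libraries have rme-2 levels of 579 to 934, and library A lies to the right in each group.

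Each side was also set against other genes of its tissue. The vitellogenin sum divided by the summed level of 20 intestine markers was 10.9, 6.01 and 4.49 in control EV, against 9.71, 5.54 and 5.72 in control daf-2 RNAi, 14.2, 8.68 and 7.26 in starved EV, against 9.19, 6.55 and 6.87 in starved daf-2 RNAi. The rank of letter A stayed first in each group, so the intestine markers did not share its full excess. Against starved EV, the ratio was lower in starved daf-2 RNAi in 3 of 3 letters, with overlap. The intestine list itself had 11 of 20 genes lower and 1 higher in that comparison (60% called; median log2 difference -0.71), among them pept-1, a peptide transporter (-1.33, adjusted p = 0.00374), and cpr-5, a cysteine protease (-1.58, adjusted p = 0.0196). After 1 day of arrest 2 of the 20 were lower and 1 higher (median -0.36), which is 15.0% called, against 1.39% of all genes.

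The level of rme-2 was 4.76% to 6.59% of the summed level of 26 oocyte and eggshell genes in all 12 libraries. This share was 6.39%, 6.23% and 5.11% in control EV, against 6.59%, 5.86% and 5.41% in control daf-2 RNAi, 5.55%, 5.61% and 4.76% in starved EV, against 6.58%, 6.01% and 5.89% in starved daf-2 RNAi. It was higher in starved daf-2 RNAi than in starved EV in 3 of 3 letters, without overlap. In the control groups it was higher under the label in 2 of 3, with overlap. Between starved daf-2 RNAi and starved EV, 13 of the 26 oocyte genes rose and 0 fell (median log2 difference 0.54, against 0.69 for rme-2), and with the block 24 rose (50% and 92.3% of the list called, against 15.7% and 47.9% of all genes). The largest was that of cpg-2, an eggshell chondroitin proteoglycan (0.68, adjusted p = 0.0396). Of 19 germline genes 7 rose and 0 fell (median 0.49), which is 36.8% called, against the same 15.7% of all genes. The part of oocyte number in the rme-2 difference was not tested.

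**Figure D5:**
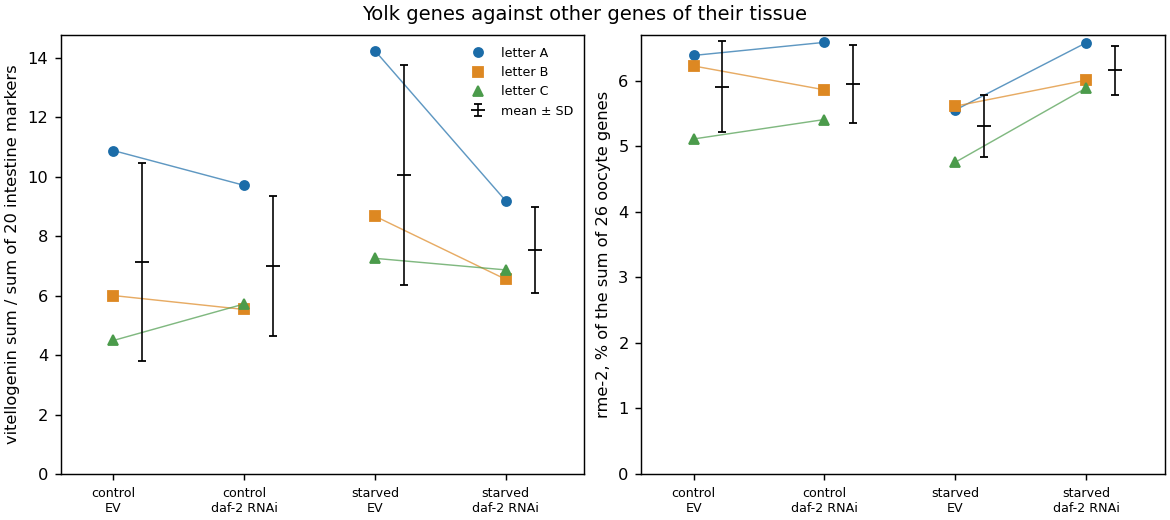
Left, the summed level of the 6 vitellogenins divided by that of 20 intestine markers, and right, rme-2 as a percent of the summed level of 26 oocyte and eggshell genes, by group with axes from 0. Points are libraries by letter, lines join same-letter libraries and black marks are mean ± SD of 3. The left ratio ranges from 4.49 to 14.2 and the right share from 4.76% to 6.59%.

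Of 17 tested genes known to act on vit transcription, 4 fell and 0 rose between starved daf-2 RNAi and starved EV (median log2 difference -0.47, against 0.00 over all genes). These were sgk-1, a kinase of the insulin and TOR pathways (from 28.5 ± 1.30 to 15.4 ± 0.54, SD, n = 3; log2 difference -0.85, adjusted p = 0.00176), elt-7 and elt-2, GATA factors of the intestine (-0.66, adjusted p = 0.0312, and -0.47, adjusted p = 0.0489), and ceh-60, a homeodomain activator of vit genes (-0.64, adjusted p = 0.0170). The genes elt-7 and elt-2 are also in the list of intestine markers above, so their fall is counted in both lists. The levels of elt-7 and ceh-60 were low over the 12 libraries, at 3.76 to 9.78 and 3.25 to 7.18. The partner of CEH-60, unc-62, had -0.61 (adjusted p = 0.0526, or 0.000719 with the block). With the block 8 of the 17 fell and 4 rose, daf-2 being among the 4. The share of the list called was 23.5%, or 70.6% with the block, against 15.7% and 47.9% of all genes. In the control groups sgk-1 fell as well (-0.61, adjusted p = 0.0322), the only 1 of the 17 without the block. That was 5.88% of the list, against 1.39% of all genes. In starved against control EV only pqm-1, a zinc finger factor of the insulin pathway, was called, from 12.5 ± 2.45 to 21.6 ± 1.86 (0.76, adjusted p = 0.0141). There the share was 5.88% of the list, against 17.7% of all genes.

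Of 25 genes of yolk assembly, secretion and uptake, 2 rose and 0 fell between starved daf-2 RNAi and starved EV: egg-1 (0.54, adjusted p = 0.0366) and egg-2 (0.52, adjusted p = 0.0308), which encode receptor-like proteins of the oocyte surface needed at fertilization. Both egg-1 and egg-2 are also in the oocyte and eggshell list above and are counted there too, and no other gene of the 25 was called without the block. Of the genes that act before secretion, dsc-4, the microsomal triglyceride transfer protein that loads lipid onto lipoproteins, had -0.72 (adjusted p = 0.106, or 0.00392 with the block). The median over the 25 was 0.12, and with the block 6 rose and 5 fell. The share of the list called was 8.00%, or 44.0% with the block, below the 15.7% and 47.9% of all genes. The largest difference of the list was that of cav-1, for caveolin, from 165, 183 and 211 in starved EV to 97.8, 99.4 and 79.6 in the libraries labelled starved daf-2 RNAi (-1.01, adjusted p = 0.0533, or 0.00865 with the block). The clathrin heavy chain gene chc-1 had 0.42 (adjusted p = 0.307, or 0.00769 with the block). In starved against control EV 1 of the 25 rose, dpy-23, a clathrin adaptor subunit (0.49, adjusted p = 0.0315). That was 4.00% of the list, against 17.7% of all genes.

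Lists of other cell types were read in the same libraries. Of 15 body muscle genes none was called between starved daf-2 RNAi and starved EV (median -0.51), while with the block 12 fell and 0 rose (80.0%, against 47.9% of all genes). Library A had the highest sum of the list in each group: 9998 against 5404 to 6997 in control EV, for example, and 11979 against 4824 to 4944 in starved EV. Muscle messages thus shared the high letter A with the vitellogenins, and their part in the vitellogenin differences was not tested. Of 18 sperm genes and 6 genes of early embryos none was called in any of the 5 comparisons without the block, and their sums stayed between 24.4 and 112 and between 15.2 and 39.2. Of 16 neuron genes 4 rose in starved against control EV and 1 fell in starved daf-2 RNAi against starved EV. The shares of the list called were 25.0% and 6.25%, against 17.7% and 15.7% of all genes. Of 10 adult cuticle genes 0 rose in either, while 1 fell in the former and 3 in the latter, among them col-19, an adult collagen (-0.78, adjusted p = 0.0387). The shares of that list called were 10.0% and 30.0%, against the same 17.7% and 15.7%.

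Over the 12 libraries, the genes outside the set most like the mean vitellogenin profile were searched among 5081 named genes with a mean of at least 10. They were tln-1, for talin, an adhesion protein of muscle attachments (r = 0.983), dys-1, for dystrophin (0.967), catp-5, for a P-type ATPase (0.966), lin-10 (0.965) and lrp-2, for a lipoprotein receptor-related protein (0.962). The most opposite were dhs-12 (-0.965), pot-2 (-0.962) and ccnk-1 (-0.956). For example, tln-1 was at 126 ± 73.6 (SD, n = 3) in control EV, 88.6 ± 31.7 in control daf-2 RNAi, 187 ± 109 in starved EV, against 102 ± 42.3 in starved daf-2 RNAi, with the wide spread that the vitellogenins also had. Most like rme-2 were mcm-2, for a subunit of the replicative helicase (r = 0.991), cec-2 (0.990), gex-5 (0.987), lst-4 (0.983) and ifet-1, for a translation repressor of germ cells (0.983). The level of mcm-2 was 391.6 ± 64.9 in control EV, 456 ± 93.0 in control daf-2 RNAi, 323 ± 73.0 in starved EV, against 474 ± 57.2 in starved daf-2 RNAi. The most opposite to rme-2 were lbp-3, for a fatty-acid binding protein (-0.928), pcp-5 (-0.926) and cest-2.2 (-0.922). These likenesses rest on letters as much as on groups.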

How the data were processed

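The table holds signal values that the authors made from counts as CPM on a scaled library size, per the labels and the values: column sums were 889133 to 1097908, and 100% of values gave whole reads within 0.01 read. Tools listed in the submitters' processing notes, with no role, are HTSeq 0.12.4, Bowtie 1.1.2 and edgeR. The authors' build and annotation: not given in the sources used here. Library preparation (NEBNext Ultra, 500 ng of RNA, 12 PCR cycles) is given in the labels' protocols and does not mark strand.

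Genes at 1 or more in at least 3 libraries (12830 of 12894) were tested as log2(value + 1) with limma 3.58.1 (trend, 4 group means, 12 libraries, two-sided), and p-values were adjusted by Benjamini-Hochberg over all tested genes of a comparison. Simulated data with known changes, drawn with no difference between letters, were used to check the code of the fit. They do not measure its errors on these data, where letters differ widely. With 3 libraries a side, an exact permutation test has a smallest p of 0.1. Names and coordinates came from WBcel235, with 12729 genes matched. edgeR 4.0.16 and DESeq2 1.42.0 were run on recovered reads. The design had assumed plain CPM and its test was kept. Named genes were the 7, daf-2, up to 3 called genes per list and comparison with the largest changes or the 2 largest if none was called, and the likeness lists; elt-2, unc-62, dsc-4, cav-1 and chc-1 (in the comparison shown) were added after their values were seen. Members and lists were chosen with earlier results of these data known. Replicates are biological per the series' design text, and no 2 libraries of a group agreed within counting error.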

Additional observations from a re-analysis of the deposited data

Results flagged for a closer look

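The effect of arrest length on vit-1 had opposite signs on the 2 kinds of bacteria: the starved library was higher than its control partner in 3 of 3 letters on EV (1.17, 1.38 and 1.37 times) and lower in 3 of 3 letters under the daf-2 RNAi label (0.778, 0.748 and 0.740). The test of that difference, the interaction, gave -0.79 ± 0.65 on the log2 scale (SE; adjusted p = 0.724, limma). With the letter as a block the adjusted p was 0.135, and with the letter as a block within each arrest length 0.0903. The difference therefore did not pass in any of these 3 fits.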

How the results depend on the processing

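Fits with the letter as a replicate block moved the counts of the 7 genes called most: 6 in starved against control EV (0 without it, and the letter B libraries did not pair there), 1 in control daf-2 RNAi against control EV and 7 in starved daf-2 RNAi against starved EV (1 without it), with the same 1 and 7 when the letter was a block within each arrest length. It changed no other of these counts. Among the EV libraries of its arrest length, every library labelled daf-2 RNAi correlated best with that of its own letter. The blocked counts of all genes were 6371, 745, 6151, 481 and 63, against 2266, 178, 2017, 90 and 0 without the block, for starved against control EV, daf-2 RNAi against EV in control and in starved animals, starved against control daf-2 RNAi, and the interaction. Within arrest length they were 1504, 7397 and 770 for both RNAi comparisons and the interaction.

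In starved daf-2 RNAi against starved EV, 2 of the 7 were called after rescaling columns to equal sums, over all genes or over genes other than the 7, and by DESeq2, 0 with a mean of at least 5 or only the groups compared in the fit, and 0 to 1 with a library left out. Quantile normalization kept the count at 1, with rme-2 in place of vit-1. Other counts of all genes past 1.5 times apart were 1480 (starved against control EV) and 50 (starved against control daf-2 RNAi) by quantile normalization, 1335, 16 and, in starved daf-2 RNAi against starved EV, 1329 with a mean of at least 5, 383 (control daf-2 RNAi against control EV), 372 and 4 interactions by DESeq2, and, in the order above, 1124, 91, 1035 and 45 with only the groups compared. With a library left out they ran from 665 to 2466, 60 to 181, 675 to 2086 and 28 to 181. Of the genes called in starved against control EV 65.4% were higher, against 91.4% and 93.6% after rescaling over all genes and over genes other than the 7, which moved the median of all genes from 0.03 to 0.13 and 0.17. For control daf-2 RNAi against control EV the share was 47.8%, against 60.7% and 58.3% (58.3% by quantile normalization), and for starved daf-2 RNAi against starved EV 24.2%, against 35.2% after rescaling over all genes and 42.2% by quantile normalization.

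Log2 differences turned or reached 0 only where they had not passed the unblocked test. Quantile normalization put vit-2 and vit-6 at 0 in both arrest comparisons and the interaction and at 0.219 and 0.0808 in both RNAi comparisons, by its construction, since it fixes the values of the top ranks. In starved against control daf-2 RNAi vit-4 was at 0.0505 and 0.0540 after the rescalings and 0.0734 by quantile normalization, and vit-3 at -0.0141 by DESeq2. With a library left out, vit-1 ran from -0.0038 to 0.85 in starved against control EV. In control daf-2 RNAi against control EV the ranges were -0.72 to 0.21 (vit-2), -0.62 to 0.28 (vit-3), -0.71 to 0.23 (vit-4), -0.81 to 0.17 (vit-5) and -0.68 to 0.28 (vit-6). In starved against control daf-2 RNAi they were -0.15 to 0.34 (vit-2), -0.27 to 0.34 (vit-3), -0.32 to 0.30 (vit-4), -0.16 to 0.48 (vit-5), -0.19 to 0.34 (vit-6) and -0.0569 to 0.225 (rme-2). The cause was not tested. Apart from these, the pseudocount of 0.5 and the absence of a filter left each of the 7 genes on the same side of the threshold. The limits are the 3 libraries per group, the wide spread between letters and the daf-2 message, which was higher in the libraries labelled daf-2 RNAi than in their EV partners. The block within arrest length was added after the data were seen.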
